A study of Homo sapiens with 5 samples.

Results

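The TRIM family was examined in ribosome footprints of HAP1 cells, a near-haploid human line of leukaemic origin. Members were the rows of the deposited table whose symbol is TRIM followed by a number, which gave 44 of 13638 rows, and each row counts a single transcript. The choice used the names, and the lowest total of any row in the table was 1 count over the 5 libraries. The family was picked with results of this comparison already known, so counts over the family are a description. Footprints came from 3 libraries of ZCCHC4 knockout HAP1 cells and 2 libraries of wild-type HAP1 cells, with no treatment given for either. ZCCHC4 is known as the methyltransferase that places N6-methyladenosine on 28S ribosomal RNA. The labels do not say how the knockout was made, or whether its libraries came from 1 clone or from separate cultures. The p-values therefore rest on how these libraries vary, and that variation may be technical. Footprints are the pieces of mRNA that translating ribosomes protect from nuclease, so a count follows both mRNA amount and ribosome occupancy, and no RNA-seq was used here to separate them.

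TRIM proteins carry a tripartite motif, in which a RING finger, B-boxes and a coiled coil follow each other. The RING finger gives most of them ubiquitin ligase activity, and the domain at the C-terminal end sets what each protein binds. Members are known for restricting retroviruses, for tuning the sensing of foreign RNA and DNA, for silencing chromatin and for remodelling the cytoskeleton and muscle. Many members with a PRY-SPRY domain are induced by interferon through response elements in their promoters.

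The promoters of family members were searched for the core letters of the interferon-stimulated response element, because several of the rising members are interferon-linked. The search looked for GAAA, any 2 bases and GAAA again on both strands, overlapping matches included, from 250 bases before to 50 bases after each RefSeq start (GRCh38.p14). RefSeq promoters were matched for 32 of the 44 members and gave 44 starts, 5 of which held the letters (11.4%). The 12 members without a match were TRIM4, TRIM8, TRIM11, TRIM13, TRIM22, TRIM24, TRIM28, TRIM29, TRIM35, TRIM43, TRIM45 and TRIM55. The search therefore did not cover the interferon-induced TRIM22. Of all 35116 starts in the RefSeq table, 3.57% held them. The sequences below run 5′ to 3′ on the strand of the gene, with the matched letters in capitals. TRIM5, TRIM21 and TRIM26 are shown because they were higher in the knockout, and TRIM44 and TRIM2 because they were lower while holding the same letters. The TRIM5 window is chr11:5685075-5685324 on the minus strand, with a match to the opposite strand. The TRIM44 window is chr11:35662525-35662774 on the plus strand. For TRIM21 (chr11:4393662-4393691, minus strand, just inside the start), TRIM26 (chr6:30213578-30213607, minus strand) and TRIM2 (chr4:153151936-153151965, plus strand, 1 of its 6 starts), only the 30 bases around the match are given. The matches describe letters and show no binding.
TRIM5: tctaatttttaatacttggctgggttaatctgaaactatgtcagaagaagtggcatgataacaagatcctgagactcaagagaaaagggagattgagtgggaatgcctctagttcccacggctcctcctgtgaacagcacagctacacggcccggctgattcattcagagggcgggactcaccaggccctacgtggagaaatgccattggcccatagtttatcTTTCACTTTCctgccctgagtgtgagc
TRIM44: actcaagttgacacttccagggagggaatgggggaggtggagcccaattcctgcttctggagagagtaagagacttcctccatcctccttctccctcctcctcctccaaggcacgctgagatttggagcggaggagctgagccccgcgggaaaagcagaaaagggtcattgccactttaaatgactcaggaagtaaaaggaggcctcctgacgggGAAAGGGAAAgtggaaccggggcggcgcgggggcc
TRIM21: tgagcgGAAACTGAAAGTGAAAtagggagc
TRIM26: cgcctgaTTTCAGTTTCCATTTCgctgccc
TRIM2: aataaatagaGAAAAGGAAAtaagccgaag

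Library totals lay between 16940732 and 31557573 counts in the knockout and were 5302160 and 4887380 counts in wild type, so depth and genotype cannot be told apart. Levels are given as CPM, counts per 1000000 after TMM scaling, and 1 count was worth 0.0339 to 0.0619 CPM in the knockout, against 0.172 and 0.187 CPM in wild type. ZCCHC4 itself was at 4.08 ± 0.810 CPM in the knockout (SD, n = 3) and 14.6 ± 1.97 CPM in wild type (SD, n = 2), a log2 fold change of -1.82. Knockout replicate 2 stood apart from the other knockout libraries, since chi-square divided by its degrees of freedom was 27.7 against replicate 1 and 24.6 against replicate 3, where replicates 1 and 3 gave 2.97 and the wild-type pair 1.14. Chi-square grows with depth for the same relative variation, so the lower wild-type value need not mean closer replicates. Of the 36 TRIM genes tested, replicate 2 was the highest of the 3 knockout libraries in 21, the lowest in 13 and between the others in 2. Of the 5 genes listed for HAP1 cells, 4 had a row and summed to 631 to 690 CPM in the knockout and 284 to 292 CPM in wild type. In the knockout most of this was VIM, which was higher there, at 511 ± 18.8 CPM against 132 ± 12.2 CPM in wild type. In wild type VIM was not most of the sum, and KRT8 had no row. BCR, which is fused to ABL1 in the parental leukaemia, was lower at 4.44 ± 0.154 CPM in the knockout and 6.83 ± 0.635 CPM in wild type, and ABL1 was detected in every library. The 5 blood lineage markers with a row of the 10 listed summed to 6.23 to 7.82 CPM in the knockout and 19.2 to 21.2 CPM in wild type. The 4 epithelial markers with a row of the 5 listed summed to 10.3 to 11.7 CPM in the knockout and 52.8 to 54.7 CPM in wild type. The 4 fibroblast markers with a row of the 6 listed summed to 8.80 to 12.5 CPM in the knockout and 16.6 to 18.1 CPM in wild type. The part of these shifts in the results on TRIM genes was not tested.

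More TRIM genes were higher than lower in the knockout. Of the 44 members, 36 passed the filter on low counts, and 18 of these were higher, 4 were lower and 14 stayed uncalled (Benjamini-Hochberg adjusted p under 0.05 over all genes, from the quasi-likelihood test of edgeR). The share called in either direction, 61.1% of the tested members, was close to the 60.0% of all 11205 genes tested. By direction, 50.0% of the tested members were higher, beside 30.2% of all genes, and 11.1% were lower, beside 29.8% of all genes. The median log2 fold change of the tested members was 0.42, and that of all genes was 0.02. Changes of at least 2-fold were called upward in 7 members (19.4%, beside 10.0% of all genes) and downward in 1 member (2.78%, beside 13.1% of all genes). Knockout and wild-type libraries were fully separated in 27 tested members (75.0%, beside 76.4% of all genes), with the knockout above in 21 (58.3%, beside 38.5%) and below in 6 (16.7%, beside 37.9%). The 18 called higher, the 7 and the 21 each include TRIM26, which passed the filter only through the knockout. With a single wild-type library the counts were smaller. Without wild-type replicate 1, 11 members were higher (30.6%, beside 21.0% of all genes) and 1 was lower (2.78%, beside 20.4%). Without wild-type replicate 2, 15 were higher (41.7%, beside 21.6%) and 1 was lower (2.78%, beside 20.8%). Scaling by library totals instead gave 13 higher (36.1%, beside 21.3% of all genes) and 7 lower (19.4%, beside 40.7%). The family's median was then 0.21 and that of all genes -0.20. Under that scaling TRIM9, TRIM11, TRIM21, TRIM23 and TRIM56 no longer passed, and TRIM35, TRIM41 and TRIM58 passed as lower.

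**Figure D1:**
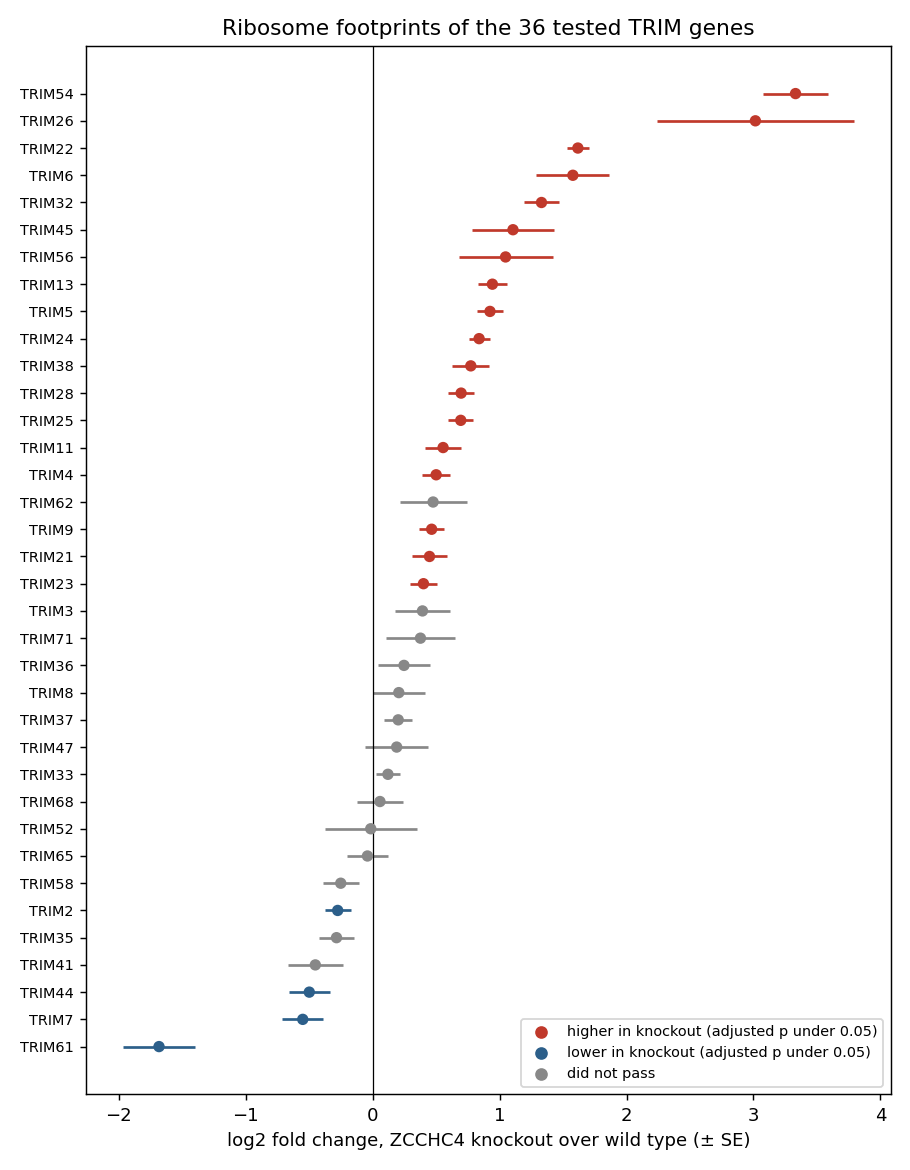
Log2 fold change of ribosome footprints, ZCCHC4 knockout over wild type, for the 36 tested TRIM genes in order of size, with bars of 1 SE. The 18 genes called higher run from TRIM54 at 3.33 to TRIM23 at 0.40, and the 4 called lower are TRIM2, TRIM44, TRIM7 and TRIM61.

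TRIM54 had the largest change of the family. It encodes a muscle RING finger protein that binds microtubules and sarcomeres (GRCh38 chromosome 2, 27282392 to 27307435, plus strand, 9 exons). Its level was 12.8, 13.7 and 11.7 CPM in the knockout libraries, against 1.03 and 1.49 CPM in the wild-type libraries. All 3 knockout libraries lay far above both wild-type libraries. The log2 fold change was 3.33 ± 0.26 (SE), a 10.1-fold rise with an edgeR adjusted p of 8.26e-06. The wild-type counts behind it were 6 and 8, and the transcript shares 36 exonic bases with UCN on the other strand, whose reads cannot be told apart without strand. TRIM55 and TRIM63, the related muscle ligases, had at most 3 counts in any library.

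TRIM26, a PRY-SPRY ligase of innate signalling encoded in the major histocompatibility region, had the next largest change and is the least certain. It had 47, 50 and 62 counts in the knockout libraries, against 0 and 3 counts in the wild-type libraries, which made 1.72, 3.10 and 2.10 CPM in the knockout, against 0 and 0.560 CPM in wild type. Every knockout library was above both wild-type libraries, but TRIM26 passed the filter only through the knockout and so had to differ. Without it 17 of 35 members were higher and the median log2 fold change of the family was 0.40. The ratio of pooled levels was 8.10-fold with an exact 95% interval of 2.72 to 39.7 for counting error only. Leaving out wild-type replicate 1 ended the call (adjusted p = 0.0893), against an edgeR adjusted p of 0.00825 with all libraries. Its transcript, ENST00000436219, was not placed on the primary assembly in GENCODE 29, so no position or coding length is given.

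TRIM22 and TRIM6 rose by close to the same fold at very different levels. TRIM22, an interferon-induced antiviral ligase (chromosome 11, 5689689 to 5710863, plus strand, 8 exons), was at 151, 153 and 153 CPM in the knockout libraries, against 47.1 and 52.3 CPM in the wild-type libraries. The knockout libraries agreed to within 2 CPM of each other and were about 3 times as high as in wild type. The log2 fold change was 1.62 ± 0.09 (SE; adjusted p = 1.40e-06). TRIM6, which makes free ubiquitin chains in interferon signalling (chromosome 11, 5596109 to 5612952, plus strand, 8 exons), was at 3.99, 4.34 and 3.83 CPM in the knockout libraries, against 1.21 and 1.49 CPM in the wild-type libraries. Its groups did not overlap, and the log2 fold change was 1.58 ± 0.29 (adjusted p = 0.00130). The read-through row TRIM6-TRIM34, which shares exonic sequence with TRIM6, is no member and had 0 to 2 counts in each library.

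TRIM32 carries NHL repeats and is mutated in a limb-girdle muscular dystrophy (chromosome 9, 116687302 to 116701298, plus strand, 2 exons). It was at 36.6, 43.4 and 37.8 CPM in the knockout libraries, against 16.6 and 14.6 CPM in the wild-type libraries. The genotypes were well separated, at a log2 fold change of 1.33 ± 0.13 (SE; adjusted p = 3.97e-05). TRIM45, which ends in a filamin domain (chromosome 1, 117111060 to 117121728, minus strand, 6 exons), was at 2.90, 4.09 and 3.59 CPM in the knockout libraries, against 1.72 and 1.49 CPM in the wild-type libraries. TRIM56, an antiviral ligase linked to DNA sensing (chromosome 7, 101085439 to 101097967, plus strand, 3 exons), was at 2.86, 4.46 and 2.98 CPM in the knockout libraries, against 1.55 and 1.68 CPM in the wild-type libraries. Both had non-overlapping groups but few wild-type counts, 10 and 8 for TRIM45 and 9 and 9 for TRIM56. The log2 fold changes were 1.11 ± 0.32 for TRIM45 (adjusted p = 0.0155) and 1.05 ± 0.37 for TRIM56 (adjusted p = 0.0348). Without wild-type replicate 1 the adjusted p was 0.0805 for TRIM45 and 0.183 for TRIM56, and without wild-type replicate 2 it was 0.111 for TRIM45 and 0.139 for TRIM56.

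TRIM61 was the member that fell by at least 2-fold. It is a little-studied gene with a short coding region (chromosome 4, 164954446 to 164977668, minus strand, 5 exons). Its level was 1.54, 0.991 and 1.59 CPM in the knockout libraries, against 4.31 and 4.85 CPM in the wild-type libraries. Every knockout library was below both wild-type libraries, and the log2 fold change was -1.68 ± 0.29 (SE; adjusted p = 0.000838). An exon of TRIM61 overlaps the pseudogene AC106872.5 on the same strand over 525 bases, so the count is uncertain.

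**Figure D2:**
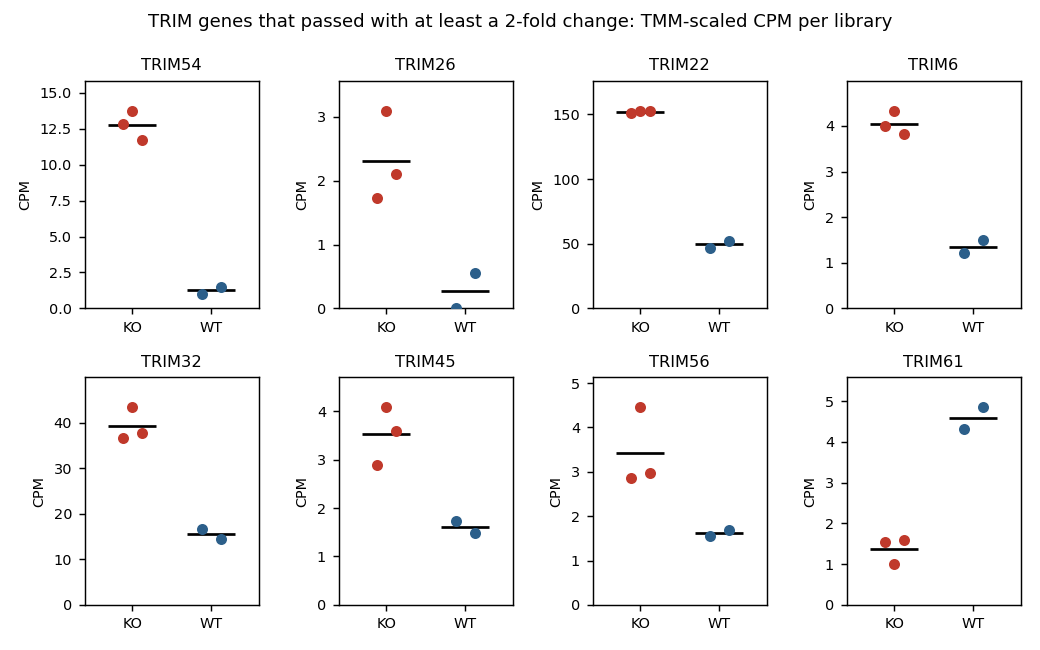
TMM-scaled CPM in each library for the 8 TRIM genes that passed with at least a 2-fold change, with 3 ZCCHC4 knockout (KO) and 2 wild-type (WT) libraries as points, the group mean as a bar, and a vertical scale of its own for each gene. The groups do not overlap in any of the 8 panels, and TRIM61 is the panel with the knockout below.

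The genes TRIM21, TRIM68, TRIM6, TRIM5, TRIM22 and TRIM3 lie in this order on chromosome 11 between 4384902 and 6474459, a stretch chosen after the values were seen. TRIM6, TRIM5 and TRIM22 are neighbours and all rose. TRIM5, the factor that traps retroviral capsids (5663557 to 5685063, minus strand, 8 exons), was at 65.7, 60.8 and 66.1 CPM in the knockout libraries, against 35.2 and 32.5 CPM in the wild-type libraries. Its groups were far apart, at a log2 fold change of 0.92 ± 0.10 (SE; adjusted p = 6.14e-05). An exon of TRIM5 overlaps the gene AC104389.4 on the same strand over 231 bases, so the count is uncertain. TRIM21, the cytosolic antibody receptor, rose by 0.45 ± 0.13 (adjusted p = 0.0172), which did not pass without wild-type replicate 1 (adjusted p = 0.188). TRIM68 and TRIM3 did not pass, at 0.06 ± 0.18 and 0.39 ± 0.22. The other 4 tested genes in the stretch all lie between TRIM22 and TRIM3. Among them CCKBR was called lower and none was called higher, and SMPD1 did not pass at 0.46 ± 0.25. Their median log2 fold change was -0.06, and that of the 6 TRIM genes was 0.69. No tested gene outside the family lies between TRIM21 and TRIM22, and the part of position was not tested.

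The PHD and bromodomain class, whose members regulate transcription, held 3 rows. TRIM28, also called KAP1, is the corepressor through which KRAB zinc finger proteins silence retroelements (chromosome 19, 58544469 to 58550716, plus strand, 17 exons). It was at 1143, 1461 and 1195.5 CPM in the knockout libraries, against 788 and 774 CPM in the wild-type libraries. The knockout libraries were all higher, with replicate 2 the highest, and the log2 fold change was 0.70 ± 0.10 (SE; adjusted p = 0.000341). TRIM28 alone held 53.3 ± 3.01% of the family's counts in the knockout (SD, n = 3) and 51.5 ± 0.551% in wild type (SD, n = 2). TRIM24, a histone reader and ligase of p53 (chromosome 7, 138460334 to 138589993, plus strand, 19 exons), was at 175, 161 and 173 CPM in the knockout libraries, against 94.5 and 95.2 CPM in the wild-type libraries. It rose by 0.84 ± 0.08 on the log2 scale (adjusted p = 3.30e-05), with no overlap of the groups. TRIM33, which acts on SMAD proteins in TGF-beta signalling (chromosome 1, 114392777 to 114511160, minus strand, 20 exons), was at 92.8, 82.1 and 94.6 CPM in the knockout libraries, against 84.1 and 81.2 CPM in the wild-type libraries. Its groups overlapped and it did not pass, at 0.12 ± 0.09 (adjusted p = 0.297). Without knockout replicate 2 TRIM33 passed at 0.18 (adjusted p = 0.00815), and with library totals it turned to -0.10 (adjusted p = 0.361).

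Heterochromatin partners of TRIM28 were called at shares near those of all genes. Of 17 genes tested, 6 were higher (35.3%, beside 30.2% of all genes), 4 were lower (23.5%, beside 29.8%) and 7 were not called, and the median log2 fold change was 0.01. UHRF1, which guides maintenance of DNA methylation, rose by 1.09 ± 0.11 (SE), the heterochromatin protein gene CBX3 by 1.08 ± 0.14 and the remodeller CHD4 by 0.88 ± 0.06. SETDB1, the histone methyltransferase recruited by TRIM28 and named after its value was seen, rose by 0.47 ± 0.10.

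**Figure D3:**
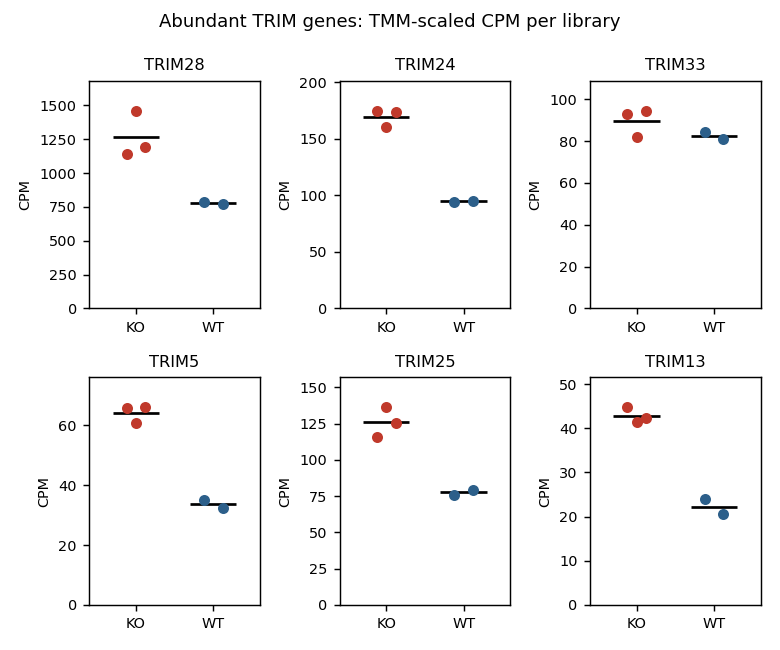
TMM-scaled CPM in each library for 6 of the more abundant TRIM genes, drawn as points for 3 ZCCHC4 knockout (KO) and 2 wild-type (WT) libraries with the group mean as a bar and a vertical scale from 0 for each gene. The groups are apart in TRIM28, TRIM24, TRIM5, TRIM25 and TRIM13, and overlap in TRIM33.

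The PRY-SPRY class was the largest, with 21 rows, of which 17 were tested. Of these, 9 were higher (52.9%, beside 30.2% of all genes and 50.0% of all tested members). Only 1 was lower (5.88%, beside 29.8% and 11.1%), and 7 did not pass. The median log2 fold change of the class was 0.48. Both the 9 and this median include TRIM26, which passed the filter only through the knockout and so had to differ. TRIM25, the ligase that activates the RNA sensor RIG-I (chromosome 17, 56887909 to 56914038, minus strand, 9 exons), was at 116, 136 and 125 CPM in the knockout libraries, against 76.0 and 79.5 CPM in the wild-type libraries. All knockout libraries were higher, and the log2 fold change was 0.69 ± 0.10 (SE; adjusted p = 0.000265). Exons of TRIM25, TRIM38, TRIM7 and TRIM11 overlap genes on the opposite strand over up to 460, 273, 196 and 159 bases. Reads there cannot be told apart without strand, which is not stated. TRIM38, a regulator of innate signalling, was at 15.0, 14.0 and 14.6 CPM in the knockout libraries, against 8.45 and 8.58 CPM in the wild-type libraries. This rise of 0.77 ± 0.15 on the log2 scale passed (adjusted p = 0.00155), with no overlap of the groups. TRIM4 and TRIM11, ligases of antiviral signalling and protein quality control, rose by 0.50 ± 0.11 and 0.55 ± 0.14. The TRIM11 call was lost without either wild-type library (adjusted p = 0.0651 in both cases). TRIM7, which binds glycogenin, was the member of the class that fell, at 6.16, 6.56 and 6.57 CPM in the knockout libraries, against 9.48 and 9.33 CPM in the wild-type libraries. Its groups did not overlap, at -0.55 ± 0.16 (adjusted p = 0.0148), but the call was lost without wild-type replicate 1 (0.0927) or 2 (0.0758). The remaining tested genes of the class, TRIM62, TRIM47, TRIM68, TRIM65, TRIM58, TRIM35 and TRIM41, did not pass, at log2 fold changes between -0.45 for TRIM41 and 0.48 for TRIM62. TRIM35 (-0.28 ± 0.14) lies on chromosome 8 below 50 Mb, where 104 of 143 tested genes were lower and the median was -0.90. Over all genes, 29.8% were lower and the median was 0.02. Without knockout replicate 2, TRIM35 (-0.35, adjusted p = 0.00490) and TRIM41 (-0.57, adjusted p = 0.00985) passed as lower.

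Genes of RNA and DNA sensing, the pathways in which TRIM25, TRIM38 and TRIM56 act, were called higher more often than lower. Of 24 tested, 11 were higher (45.8%, beside 30.2% of all genes), 2 were lower (8.33%, beside 29.8%) and 11 were not called, and the median log2 fold change was 0.46. TMEM173, IFIT3 and IFIT2 passed the filter only through the knockout, and IRF9 and MX1 only through wild type. Without these 5 genes, 9 were higher and 1 was lower of 19, with a median of 0.32. IFIT1, an interferon-induced protein that binds foreign RNA, rose by 3.00 ± 0.23 (SE) to 13.7 CPM in the knockout, against 1.70 CPM in wild type. TMEM173, the DNA sensing adaptor STING, and IFIT3, a partner of IFIT1, had 1 and 2 wild-type counts in all, and their ratios were 21.4-fold (exact 95% interval 3.78 to 852) and 15.3-fold (4.18 to 127), for counting error only. DDX58, which encodes the RIG-I sensor that TRIM25 modifies, rose by 0.67 ± 0.16. Both falls, in TRAF3 and IRF9, were lost without wild-type replicate 1 or knockout replicate 1, when 0 of the list were lower, while 1 was lower without wild-type replicate 2 or knockout replicate 3 and 3 without knockout replicate 2. Over all genes, 28.5%, 35.9% and 27.3% were lower without knockout replicate 1, 2 and 3. DDX58, TRAF3, IRF9, IFIT2 and MX1 are named after their values were seen.

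The NHL repeat class binds RNA and other partners through a propeller of repeats, and its 4 members differed. TRIM32 rose, as given above, and TRIM2, a ligase of neurofilament light chain, was lower at 28.4, 31.9 and 30.9 CPM in the knockout libraries, against 36.2 and 37.3 CPM in the wild-type libraries. The TRIM2 groups did not overlap, but the change was small at -0.28 ± 0.10 (SE; adjusted p = 0.0444). Its call ended without wild-type replicate 1 (adjusted p = 0.146) or 2 (0.202) and without knockout replicate 1 (0.135) or 3 (0.102). TRIM3, a neuronal member, and TRIM71, an RNA-binding repressor that acts in stem cells, did not pass at 0.39 ± 0.22 and 0.38 ± 0.27. TRIM71 had 122, 93 and 118 counts in the knockout libraries, against 19 and 21 counts in the wild-type libraries, and these groups did not overlap. Of 16 genes of the let-7 and LIN28 pathway around TRIM71, 3 were higher (18.8%, beside 30.2% of all genes), 7 were lower (43.8%, beside 29.8%) and 6 were not called, and the median was -0.15. LIN28B, which blocks let-7 maturation, rose by 1.41 ± 0.17, and the Argonaute genes AGO4 and AGO3 fell, with log2 fold changes of -1.65 ± 0.17 and -1.12 ± 0.17. Without knockout replicate 2, 6 of the 16 were higher, beside 37.3% of all genes. Without knockout replicate 1 or 3, 2 were higher, beside 28.6% and 27.4% of all genes.

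The COS box class associates with microtubules and had 6 rows, of which 3 were tested. Beside TRIM54, TRIM9, a neuronal ligase of axon branching, rose by 0.46 ± 0.10 (SE; adjusted p = 0.00320). It was at 58.9, 66.9 and 62.7 CPM in the knockout libraries, against 44.1 and 46.8 CPM in the wild-type libraries, which did not overlap. The TRIM9 call ended without wild-type replicate 1 (adjusted p = 0.0528). TRIM36 did not pass, at 0.25 ± 0.21.

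Members with other domains were few and moved separately. TRIM13, anchored in the endoplasmic reticulum membrane, was at 44.8, 41.3 and 42.4 CPM in the knockout libraries, against 24.0 and 20.5 CPM in the wild-type libraries. It rose by 0.94 ± 0.11 (SE; adjusted p = 0.000116), and shares 818 exonic bases with KCNRG on the same strand, so its count is uncertain. TRIM23, which ends in an ARF-like GTPase domain, rose by 0.40 ± 0.11 (adjusted p = 0.0109), a call lost without wild-type replicate 1 (0.146). TRIM44, which lacks a RING finger, was at 13.9, 10.5 and 13.5 CPM in the knockout libraries, against 18.3 and 17.7 CPM in the wild-type libraries. Its groups were apart, at -0.50 ± 0.16 (adjusted p = 0.0236), but the call was lost without wild-type replicate 1 (0.136) or 2 (0.102). TRIM37, a MATH-domain ligase of peroxisomes and centrosomes, did not pass at 0.20 ± 0.11 (adjusted p = 0.150), but passed without knockout replicate 2 (0.26, adjusted p = 0.00713). TRIM8 and TRIM52 did not pass, at 0.21 ± 0.21 and -0.01 ± 0.36, and TRIM52 overlaps a transcript on the opposite strand over 1776 bases. TRIM7, TRIM41 and TRIM52 are neighbours on chromosome 5, a group noticed after the values were seen. Their median was -0.45 with 1 of 3 lower, beside 29.8% of all genes.

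**Figure D4:**
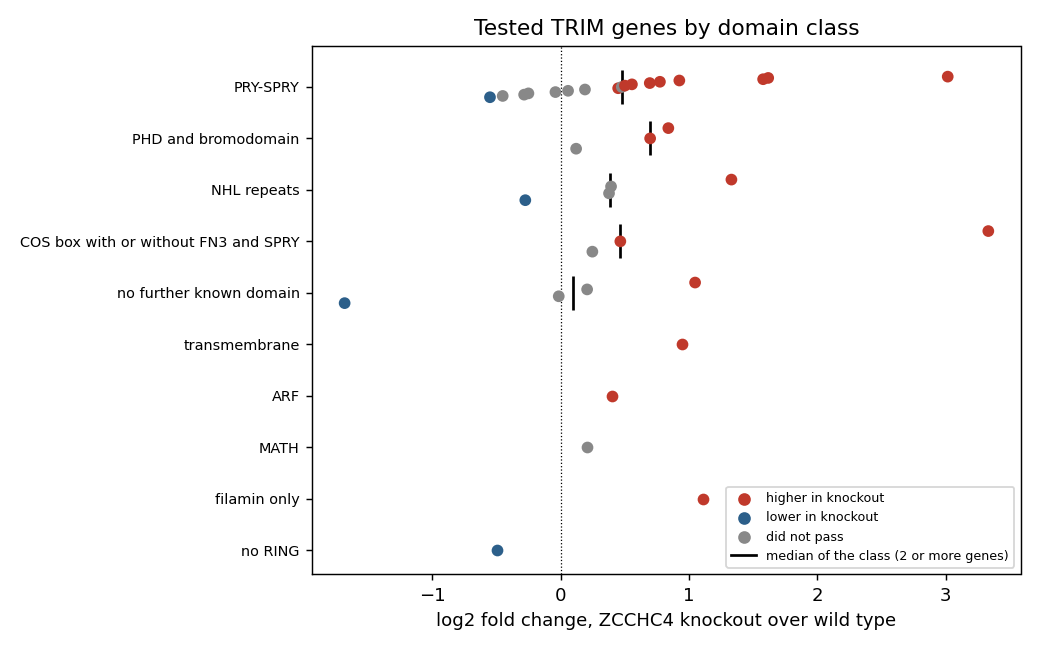
Log2 fold change (ZCCHC4 knockout over wild type) of the 36 tested TRIM genes, a point each, grouped by the domains that follow the tripartite motif, with a line at the median of each class of 2 or more genes. The medians are 0.48 for the PRY-SPRY class, 0.70 for the PHD and bromodomain class, 0.38 for the NHL class and 0.46 for the COS box class.

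The enzymes that hand ubiquitin to TRIM ligases were called at shares not far from those of all genes. Of 20 tested ubiquitin-activating and conjugating enzymes, 5 were higher (25.0%, beside 30.2% of all genes), 8 were lower (40.0%, beside 29.8%) and 7 were not called, and the median log2 fold change was -0.10. UBE2D4, UBE2V1 and UBE2L6 fell, with log2 fold changes of -2.78 ± 0.30 (SE), -2.36 ± 0.22 and -1.67 ± 0.12. UBE2L6 is the conjugating enzyme for ISG15, whereas UBE2D4 and UBE2V1 have close paralogs and are uncertain for that reason. Fewer genes of the list, as of all genes, were called in each direction with a single wild-type library. Of 7 tested TRIM-related genes without a TRIM symbol, 3 were higher (42.9%, beside 30.2% of all genes). A further 2 were lower (28.6%, beside 29.8%) and 2 did not pass. Of the 7, TRIML2 passed the filter only through the knockout and BSPRY only through wild type. Without TRIML2 and BSPRY, 2 were higher and 1 was lower of 5. TRIML2 had 2 wild-type counts in all, and its ratio was 20.3-fold (exact 95% interval 5.58 to 169, counting error only). FSD1 and BSPRY fell, with log2 fold changes of -0.99 ± 0.10 and -1.48 ± 0.48. Without knockout replicate 3, 1 of the 7 was lower, beside 27.3% of all genes, and fewer were also lower with a single wild-type library.

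Levels were compared between members as CPM per kilobase of coding length, for the 43 members placed in GENCODE 29. TRIM28 led in both genotypes, at 506 ± 68.0 in the knockout (SD, n = 3) and 312 ± 4.22 in wild type (SD, n = 2). In the knockout it was followed by TRIM22 (102 ± 0.602), TRIM25 (66.6 ± 5.40), TRIM24 (53.8 ± 2.47) and TRIM5 (43.4 ± 2.02), and no library ranges overlapped between neighbours down to TRIM9. In wild type the order was TRIM25 (41.1 ± 1.30), TRIM22 (33.2 ± 2.45), TRIM24 (30.1 ± 0.155) and TRIM33 (24.4 ± 0.619), also without overlap of neighbours. TRIM22 thus stood above TRIM25 in the knockout and below it in wild type. TRIM9, TRIM33 and TRIM23 overlapped from neighbour to neighbour in the knockout, as did TRIM5 and TRIM9 in wild type. Over the whole order, 30 of 42 neighbouring pairs overlapped in the knockout and 25 of 42 in wild type.

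**Figure D5:**
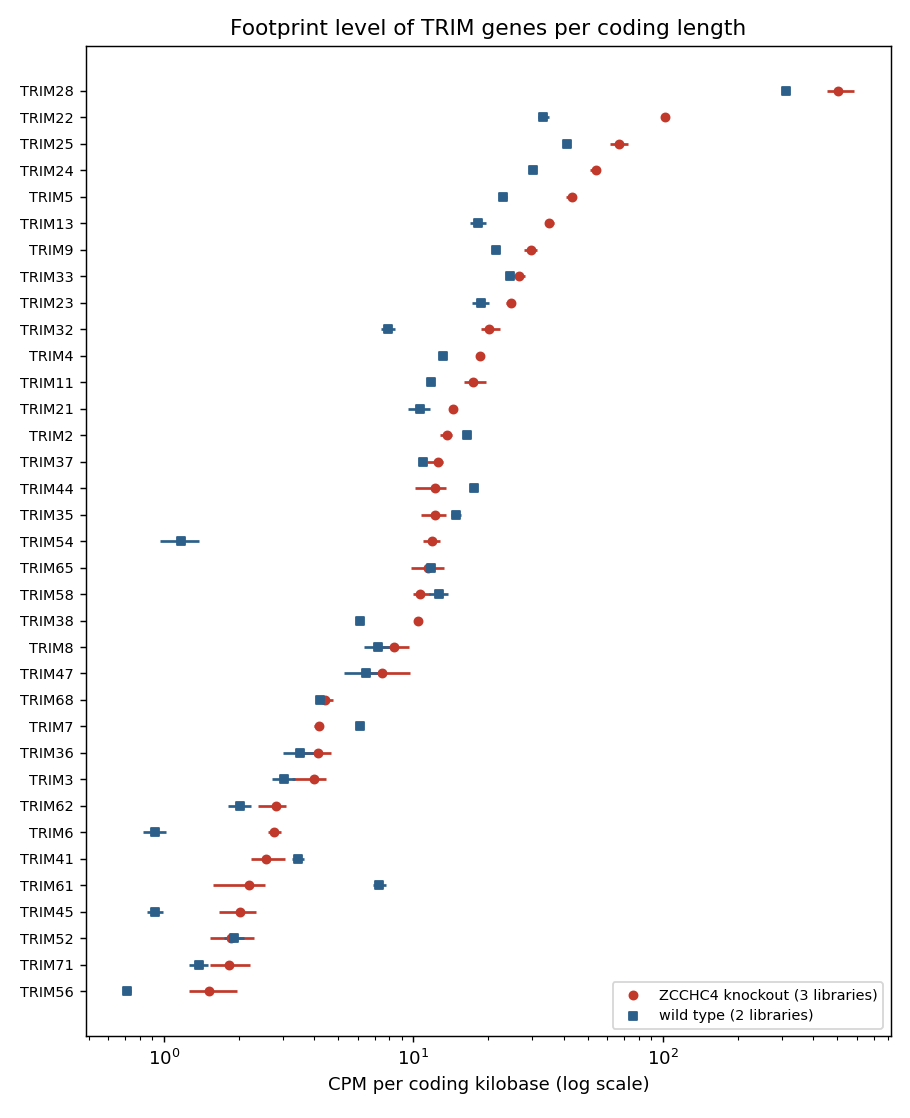
Footprint level of TRIM genes as CPM per coding kilobase on a log axis, for members with at least 20 counts over the 5 libraries and a known coding length, ordered by the knockout level. Circles are the mean of 3 ZCCHC4 knockout libraries, squares the mean of 2 wild-type libraries and lines the range, and TRIM28 stands above all others in both genotypes.

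The 8 members left out by the filter were close to silent. TRIM43, TRIM50, TRIM63, TRIM72, TRIM15, TRIM29, TRIM55 and TRIM46 had at most 3 counts in any library. TRIM46, a microtubule organiser of axons, was the only 1 of these with a wild-type count, with 1, 2 and 1 counts in the knockout libraries, against 1 and 0 there. A count of 0 allows up to 3 counts, which is at most 0.186 CPM in the knockout and 0.517 and 0.560 CPM in wild type, for counting error only.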

How the data were processed

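Per the labels' protocols, ribosome-protected fragments of 28 to 32 nt were isolated from HAP1 lysates after RNase I digestion and cloned with adapters carrying random bases. Bowtie (version not given) and hg38 were used, per the submitters' processing notes. The counting tool, annotation, strand, deduplication and the treatment of reads with several matches are not stated in the sources used here. The deposited table holds raw whole-number counts per transcript for 13638 rows, and its header is shifted by 1 cell, so columns were assigned by name after that shift.

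Genotypes were compared with the quasi-likelihood test of edgeR 4.0.16 under R 4.3.3, with genotype as the only term. Counts were TMM-scaled, rows were kept by filterByExpr (minimum count 10), and p was adjusted by Benjamini-Hochberg over 11205 rows, with 0.05 as threshold. SE is the size of the log2 fold change divided by the square root of F. DESeq2 1.42.0 was an alternative, beside other scalings, filters, left-out libraries, a replicate block and summed wild-type libraries. Coding lengths and positions are from GENCODE 29 (GRCh38), and promoters from RefSeq. The family, lists and classes were chosen with earlier results of these data known. Every TRIM row is named. Values in every library are given for called members with at least a 2-fold change and an average log2 CPM of at least 1, the PHD class, the 5 highest levels per coding length in each genotype, and some others picked after their values were seen. Of each list of other genes, the 3 called members with the largest change are named.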

Additional observations from a re-analysis of the deposited data

How the results depend on the processing

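Of the 18 TRIM genes called higher and the 4 called lower, counts stayed within 1.5 times under RLE and upper-quartile scaling, no filter on low counts, a mean count of at least 50 and the replicate block. The members called higher ranged from 11 to 20 when a library was left out, and those called lower from 1 to 6. Lower calls numbered 7 with library totals, 2 with DESeq2 and 2 with the wild-type libraries summed. The family's median log2 fold change was 0.21 with library totals. Library totals also gave 5 lower genes of RNA and DNA sensing, 8 lower partners of TRIM28 and 2 higher conjugating enzymes. Under that scaling 40.7% of all genes were lower and 21.3% were higher. In the sensing list 0 genes were lower with DESeq2, 1 with no filter and 0 with the wild-type libraries summed, and 0 to 3 when a library was left out. Of the TRIM-related genes, 1 was lower with DESeq2, at a mean count of at least 50, with the replicate block and with the wild-type libraries summed, and 1 to 2 with a library left out. The conjugating enzymes gave 3 higher and 5 lower with the wild-type libraries summed, and 3 to 7 higher and 5 to 9 lower with a library left out. The let-7 list gave 2 to 6 higher with a knockout library left out. Over all genes, 27.4% to 37.3% were then higher and 27.3% to 35.9% lower. The lower share of all genes was 22.9% with DESeq2, 24.8% with no filter and 30.2% at a mean count of at least 50. With the replicate block that share was 27.0%.

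Members that changed sign were not called under the setting that turned them, nor with all libraries, but TRIM33 and TRIM37 were called higher without knockout replicate 2. With library totals, TRIM33 was at -0.10, TRIM37 at -0.018, TRIM47 at -0.027, TRIM8 at -0.012 and TRIM68 at -0.16. TRIM68 was at -0.0060 with upper-quartile scaling and at -0.014 at a mean count of at least 50. TRIM52 was at 0.026 and TRIM65 at 0.000245 with no filter. With a library left out, TRIM47 ranged from -0.048 to 0.49, TRIM52 from -0.21 to 0.12 and TRIM65 from -0.15 to 0.059. The deviations of replicates 1 and 2 correlated at -0.0976 between the genotypes over 9522 genes. The wild-type pair differed by little beyond counting error (chi-square divided by its degrees of freedom 1.14). The correlation therefore cannot show whether the replicate numbers pair the libraries. With the replicate block 18 members were higher and 3 lower, TRIM52 turned to 0.016, and the TRIM2 call was lost (adjusted p = 0.153). The cause of these changes was not tested. The wild-type libraries, with the fewest counts, limit the precision of members with few counts there.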
